A study of Ovis aries with 16 samples.

Results

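The variable regions are stretches of the sheep genome in which a peak of methylated DNA was found in 7, 8 or 9 of 16 fetuses. They were obtained by pooling the peaks of all fetuses, joining those that shared at least 1 bp into merged regions, and keeping regions on chromosomes 1 to 26. This gave 58889 variable regions, which were 8.68% of the 678678 autosomal merged regions and 8.34% of all 706111 merged regions. They were chosen by the number of fetuses with a peak, so that number, placement and spacing are given as a description, with no test. The share per fetus set against library measures, and the agreement between neighbours, use the same calls of presence as the rule.

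The dams were Polypay ewes on a hay diet or a corn diet, the latter with some haylage, which supplied the same energy and were fed from the middle of pregnancy until the fetuses were taken late in it. The samples comprise 8 fetuses from hay-fed ewes (labelled Hay) and 8 from corn-fed ewes (labelled Corn), each given a sample number. DNA of the longissimus dorsi (LD) muscle, the long muscle of the back, was enriched with a methyl-binding domain (MBD) protein and sequenced, and peaks were called in each fetus separately. The paper's list of DNA pools shows twin pairs in both diets, so there were fewer dams than fetuses, and both sexes in each diet. Twins share a dam, but dam, sex and sequencing lane were not given for the numbered samples. The P-values therefore treat the fetuses as independent, although some were twins. No other tissue was measured, and whole muscle holds more cell types than muscle fibres.

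DNA methylation in mammals is placed mainly on cytosines followed by guanine, called CpG sites, and is copied at cell division. An MBD protein holds fragments with several methylated CpG sites, so a peak needs both CpG sites and methylation on them, and enough reads to be called. A fetus without a peak may therefore carry methylated DNA below the calling limit as well as unmethylated DNA, which cannot be told apart from peak lists.

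Variable regions were the sparse middle of a distribution that was high at both ends. A peak in 7 fetuses was found in 20824 regions, in 8 fetuses in 19274 and in 9 fetuses in 18791, against 185488 regions with a peak in a single fetus and 86181 with a peak in all 16. Just outside the limits, 23097 regions had a peak in 6 fetuses and 18540 in 10. The neighbouring classes passed into each other without a break, with median widths of 683, 733, 767, 795 and 819 bp from 6 to 10 fetuses. Over the same classes the median peak score, which is −log10 of the deposited P-value of a peak, was 1.245, 1.26, 1.277, 1.297 and 1.317.

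**Figure D1:**
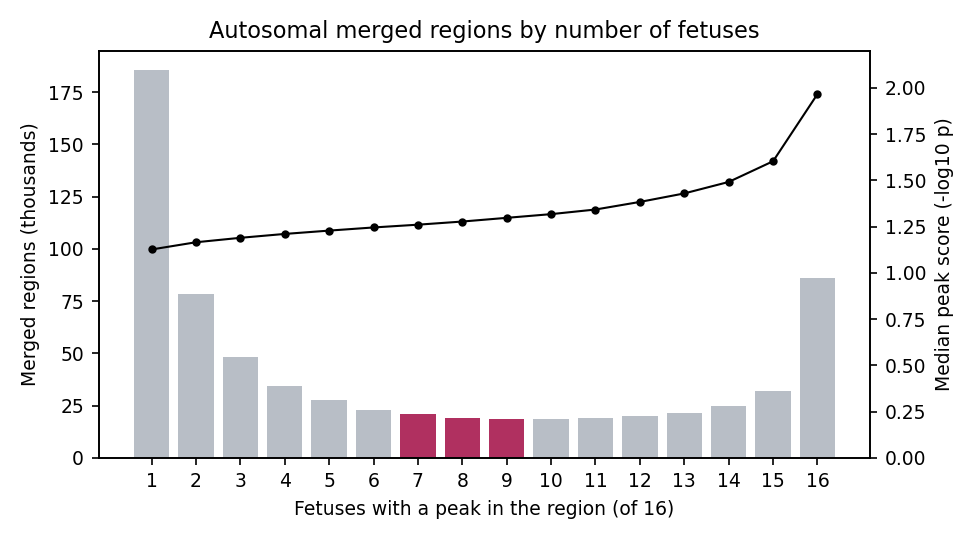
Bars show the number of autosomal merged regions (left axis, in units of 1000) by the number of fetuses with a peak, with the variable regions in red. The line shows the median peak score (−log10 of P, right axis), which was 1.126 in regions of a single fetus, 1.26 to 1.297 in variable regions and 1.966 in regions of all 16 fetuses.

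Peaks in variable regions were weak and short. In variable regions the median score of peaks was 1.279, compared with 1.966 in regions found in all 16 fetuses, and the median width was 231 bp compared with 736 bp. In variable regions 66.2% of peaks were no wider than 250 bp, the fragment length set in the peak caller, while in regions of all 16 fetuses 23.5% were. The merged variable regions were wider than their peaks, with a median of 765 bp (interquartile range 663 to 854). A fetus with a peak covered a median of 49.1% of the region. In 44282 variable regions (75.2%) at least 1 fetus had more than 1 peak, and the mean was 1.277 peaks per fetus with a peak. In regions of 10 to 15 fetuses that mean was 1.322.

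The peaks of different fetuses did not always lie over each other within a variable region. In 45.7% of variable regions, all fetuses with a peak shared a base, against 82.3% of regions found in all 16 fetuses. Regions of 10 to 15 fetuses were like the variable regions in this, at 45.1%. The largest number of fetuses over a single base had a median of 7. It was as low as 3 in 29 regions and reached 9 in 7736. In the other variable regions, the peaks formed a chain joined through partial overlaps.

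Fetuses differed widely in how many variable regions they had a peak in. Among fetuses from hay-fed ewes the share ran from 15.6% (Hay 11) to 69.1% (Hay 8), with a median of 56.8%. Among fetuses from corn-fed ewes it ran from 30.5% (Corn 2) to 77.2% (Corn 7), with a median of 52.7%. The diets overlapped over most of this range, and the difference between their means of 48.8% ± 20.1 and 50.8% ± 15 (SD, n = 8 each) was −1.98 percentage points, hay minus corn (exact permutation test, two-sided, p = 0.825, 0.985 after Benjamini-Hochberg adjustment over 7 measures). Without Corn 7, Hay 10 or Hay 11, in turn, the difference had the opposite sign (1.79, 1.73 and 2.77 points). It was larger in size, but not past the threshold, when regions were formed again from lists of equal length (−6.41 points, exact permutation test, p = 0.0695), without the weakest 25% of peaks (−6.12) or with presence defined as peaks over 50% of a region (−11.5, p = 0.143 by the exact test). As a share of a fetus's own peaks, those in variable regions made up 8.65% ± 2.43 in hay and 9.55% ± 1.52 in corn (SD, n = 8 each; exact permutation test, p = 0.389).

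With a peak of any overlap counted as presence, the share of variable regions with a peak rose with the number of peaks a fetus had elsewhere. The fetuses had 261331 to 519923 peaks in all. Against the number of peaks outside the variable regions, the share gave a Pearson's r of 0.894 (p = 1e-05, the smallest that 100000 resamples of the permutation test allow) and a Spearman's rho of 0.894 (p = 3e-05) over 16 fetuses. Adjusted over the 3 library measures tried, these p-values were 3e-05 and 9e-05. The rule used the same calls of presence, and both counts come from one library. The p-values here therefore cannot show a trait particular to variable regions. Within hay r was 0.935 (exact permutation test, p = 0.00139, n = 8) and within corn 0.853 (exact permutation test, p = 0.00615, n = 8). Without the 2 fetuses farthest from the median, Hay 15 and Hay 11, r was 0.857 (permutation test, p = 7e-05). With peaks required to cover 50% of a region, which chose other regions, r was 0.306 and no longer past the threshold (permutation test, p = 0.246).

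Fetuses with similar totals still differed. Corn 4 had 498464 peaks and Corn 7 had 499815, yet Corn 4 had a peak in 58.9% of the variable regions and Corn 7 in 77.2%. Hay 5 and Hay 12 had 395903 and 388288 peaks and shares of 58.5% and 42.3%. Bases under peaks outside the variable regions, a measure added after seeing the data, also moved with the share (r = 0.846, permutation test, adjusted p = 0.000105). The third measure, also added later, was the 90th percentile of the score over all peaks of a fetus, which describes how strong its best peaks were. It gave an r of −0.358 (permutation test, adjusted p = 0.172), so no relation was detected over 16 fetuses.

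**Figure D2:**
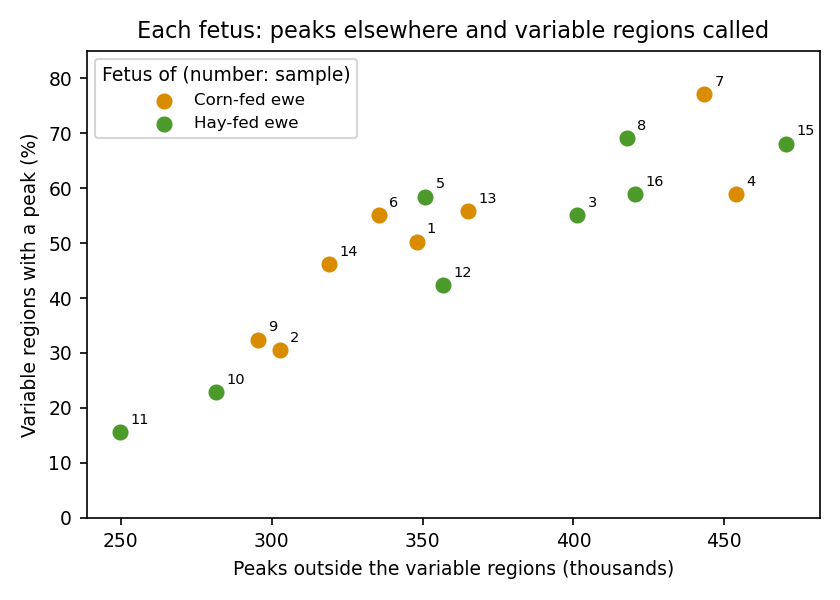
Each point is a fetus, numbered by sample and coloured by diet, with its number of peaks outside the variable regions (horizontal axis, in units of 1000) and the percentage of variable regions in which it had a peak (vertical axis, from 0). Hay 11, with the fewest peaks, lies lowest at 15.6%, and Corn 7 lies highest at 77.2%, above fetuses with more peaks.

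The 8 fetuses with the most peaks held 57.7% of all peaks and 58% of the calls over all autosomal regions, where a call is a region in which a fetus had a peak. They supplied 63% of the calls in variable regions. Their part was 84.8% in regions of a single fetus, 74.8% in regions of 2 to 6 fetuses and 53.3% in regions of 10 to 15, and it is 50% by definition in regions of all 16. More of these 8 than of the other fetuses had a peak in 44559 variable regions (75.7%), and in 953 every fetus with a peak was among them. When each fetus was cut to its 261331 strongest peaks, the length of the shortest list, 5546 of the 58889 variable regions (9.42%) still had a peak in 7 to 9 fetuses and 53343 had fewer than 7. Merging these equal lists anew gave 48199 regions of 7 to 9 fetuses, of which 11.4% overlapped a variable region, and 9.36% of the variable regions overlapped one of them. Over the new regions, the share of a fetus did not detectably follow its deposited number of peaks outside the variable regions as first formed (r = −0.137, permutation test, p = 0.609). This alternative was added after seeing the data. The fetuses also differed in the scale factor used for limma, which is a fetus's median score ratio over regions found in every fetus. Hay 5, Corn 14 and Corn 6 had factors of 1.27 to 1.38 and shares of 60% to 60.9% over the new regions. Hay 12 and Corn 4 had factors of 0.765 and 0.781 and shares of 40.8%. Hay 11, at 41.2%, had a factor of 0.943. A relation of this share to the factor was not tested.

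The diets did not detectably separate the fetuses by which variable regions they had. Presence was compared between fetuses with the phi coefficient, which is the correlation of presence and absence over the 58889 variable regions. Over 120 pairs phi ranged from −0.208 to 0.12 with a mean of −0.0537, and values near or below 0 are built in, since each region had to be missing from 7 to 9 fetuses. Pairs of the same diet averaged 0.00738 above mixed pairs (exact permutation test over fetuses, p = 0.69). The medians were −0.0942 over 28 hay pairs, −0.0492 over 28 corn pairs and −0.0696 over 64 mixed pairs.

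Phi fell instead into blocks that crossed the diets, which were read from the values and are given with no test. Corn 1, Corn 2, Corn 6, Corn 9, Corn 14, Hay 5, Hay 10 and Hay 11 had coefficients of −0.021 to 0.117 among themselves. Hay 3, Hay 8, Hay 12, Hay 15, Hay 16, Corn 4 and Corn 7 had −0.0073 to 0.12 among themselves. Between these sets phi was negative in every pair, from −0.208 to −0.0852. Corn 13 stood apart, with coefficients of −0.0721 to −0.0318 with all other fetuses. The 90th percentile of the peak score was 3.01 to 4.04 in the first set, 2.18 to 2.85 in the second and 2.87 in Corn 13. Over the 120 pairs, phi fell with the difference in that percentile (r = −0.637). It also fell with the difference in log2 number of peaks outside the variable regions (r = −0.661). Pairs share fetuses, so these are descriptions, and the part of sequencing lane was not tested.

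**Figure D3:**
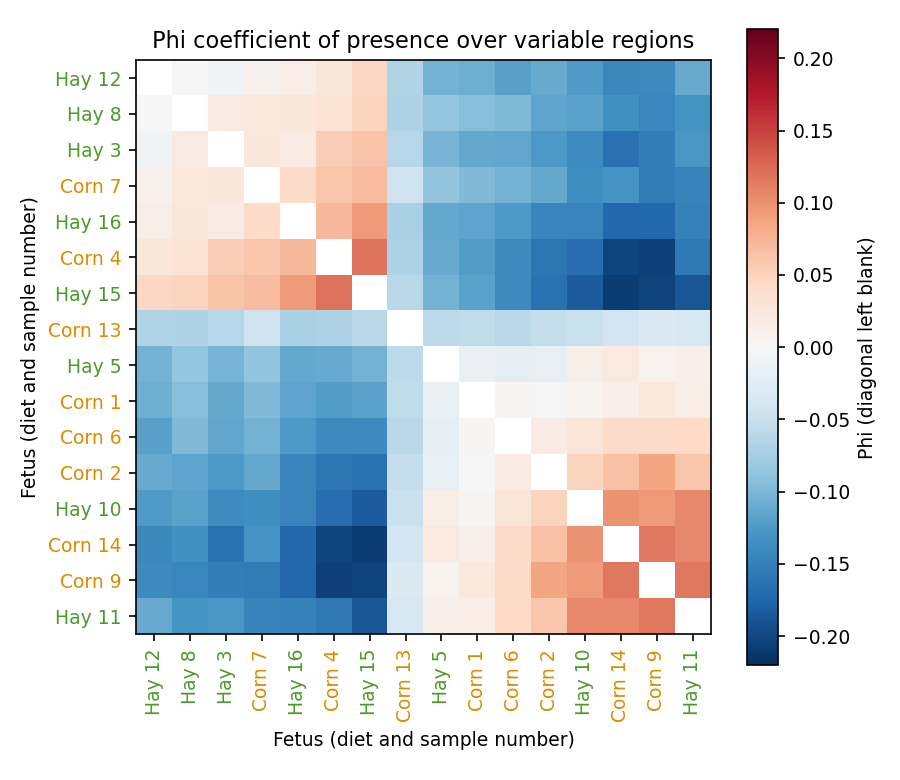
The map shows the phi coefficient of presence over the variable regions for every pair of fetuses, in red above 0 and in blue below 0, with fetus names coloured by diet and the diagonal left blank. Both red blocks hold hay and corn fetuses, and Corn 13 is pale blue against all others (−0.0721 to −0.0318).

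Patterns of presence were many and rarely shared. The 58889 variable regions held 17984 distinct sets of fetuses, and the commonest was found in 442 regions (0.751%). That set was Hay 3, Hay 8, Hay 12, Hay 15, Hay 16, Corn 4 and Corn 7, the same fetuses as the second block of phi. The next most common, in 277 regions, added Corn 13 to it. The median peak scores in these regions were 1.41 and 1.425.

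Presence was shared between variable regions most where they nearly touched. For each fetus, agreement was the share of pairs of variable regions in which it had a peak in both or in neither. Pairs 1000 variable regions apart on the same chromosome gave a mean agreement of 56.2% ± 6.98 (SD, n = 16 fetuses), which is what a fetus shares with itself across the genome. The 1017 neighbouring pairs up to 200 bp apart, a class examined after the data were seen, agreed in 76.4% ± 4.28 (SD, n = 16), higher in 16 of 16 fetuses by 20.1 percentage points (exact sign-change permutation test, p = 3.052e-05, the smallest it can give). The median gap of these pairs was 81 bp, and 63 of them (6.2%) had a peak in exactly the same fetuses.

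Beyond 200 bp the agreement fell almost to that of distant pairs. It was 57.7% over 200 and up to 500 bp (525 pairs), 56.9% over 500 and up to 1000 bp (854 pairs), 57% over 2000 and up to 5000 bp (4316 pairs) and 56.2% beyond 50 kb (16389 pairs). For all neighbours up to 10000 bp apart, the excess over distant pairs was 1.98 percentage points (16 of 16 fetuses, exact sign-change permutation test, p = 3.052e-05). It was 1.19 points when peaks up to 100 bp apart were merged and 0.923 points without the weakest 25% of peaks (p = 0.0001526 and p = 0.00235 by the exact test). With the regions as first formed but without the pairs up to 200 bp, also a later choice, the excess was 0.649 points, higher in 12 of 16 fetuses (exact sign-change permutation test, p = 0.00339). Over 1000 and up to 10000 bp it was 0.611 points, also in 12 of 16 (p = 0.00861 by the exact test). Hay 5 had the largest excess beyond 200 bp, 3.34 points, and Hay 12 the lowest, −0.374. The excess up to 10000 bp did not differ detectably between hay (2.07 ± 1.36) and corn (1.89 ± 0.593; SD, n = 8 each; exact permutation test, p = 0.753). Since every variable region was found in 7 to 9 fetuses, the fetuses are not free of one another in these tests.

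**Figure D4:**
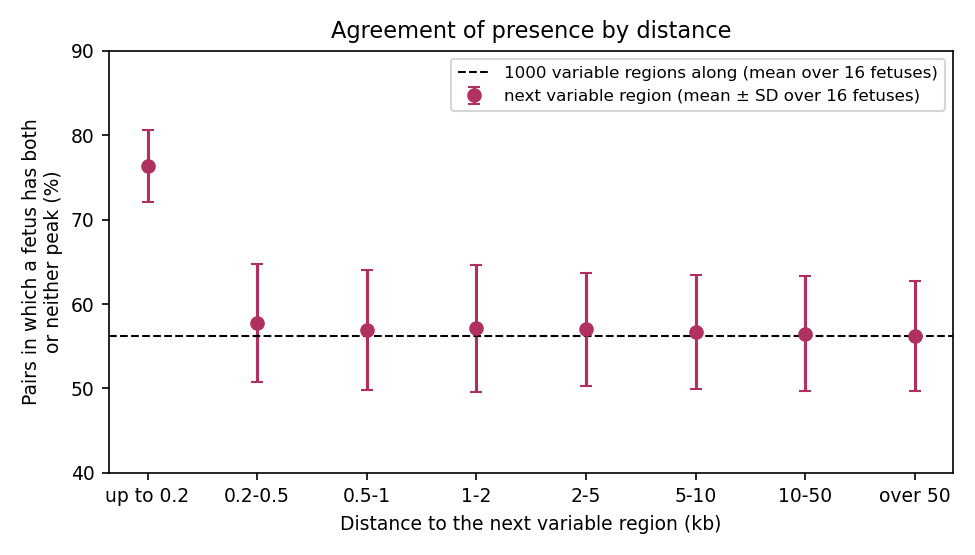
Points show the percentage of pairs of neighbouring variable regions in which a fetus had a peak in both or in neither, by distance in kb, as the mean over 16 fetuses with SD bars, on an axis from 40 to 90%. The dashed line is the mean for pairs 1000 variable regions apart (56.2%), and only the point up to 0.2 kb (76.4%) stands clear of it.

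Variable regions were slightly more often followed by another variable region than the genome as a whole. The next merged region was variable in 10.3% of cases, against 8.68% of all autosomal regions. This was not particular to variable regions, as each other class also followed itself more often than its share. Regions of a single fetus did so in 33.86% of cases (27.33% of all) and those of 2 to 6 in 37.66% (31.25%). Regions of 10 to 15 did so in 23.13% (20.05%) and those of all 16 in 26.47% (12.7%). A region of 10 to 15 fetuses followed in 22.2% of cases (20.1% of all regions) and a region of all 16 fetuses in 11.3% (12.7% of all). Most variable regions, 47378 (80.5%), had no variable region directly on either side. Another 9782 lay in 4891 runs of 2, and there were 55 runs of 4, 6 of 5 and 1 of 6. The median distance to the next variable region was 25477 bp and to the next merged region of any kind 1725 bp.

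The longest run held 6 consecutive merged regions on chromosome 26, from 14723142 to 14743634 (Oar_v3.1), spanning 20493 bp. Its regions were 668 to 904 bp wide and had a peak in 8 or 9 fetuses each, with a mean of 3 hay and 5.33 corn fetuses. The mean phi between its consecutive regions was −0.0508. Of the 6 runs of 5, the first by position lay on chromosome 1 from 230624502 to 230638838, with 7 to 9 fetuses per region and a mean phi of 0.415. The second lay on chromosome 2 from 205102440 to 205118792, also with 7 to 9 fetuses and a mean phi of 0.163. Pairs 1000 variable regions apart had a mean phi of 0.126. A run of variable regions was therefore not in itself a block with the same fetuses.

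Every autosome had variable regions in similar proportion. The share of merged regions that were variable was highest on chromosomes 8 (9.11%, 2196 regions) and 22 (9.06%, 1272 regions). It was lowest on chromosomes 14 (7.98%, 1542 regions) and 24 (8.09%, 1028 regions). Per Mb up to the last merged region, the chromosomes held 22.6 to 26.7 variable regions. Over the 26 chromosomes the share of variable regions fell as the share of regions found in all 16 fetuses rose (r = −0.888, rho = −0.869), which was 15.8% on chromosome 14 and 11% on chromosome 8. Both are shares of the same regions and so are not independent.

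The placement along chromosomes was also even, apart from the ends. With each chromosome divided into 10 parts, the share of variable regions was lowest in the last part (7.06%), which had the most regions of all 16 fetuses (27.8%). The first part followed, at 7.99%, and the parts between held 8.83% to 9.31%. Sheep chromosomes differ in shape, and whether a part lies near a centromere was not examined.

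Windows of 1 Mb held a median of 24 variable regions (interquartile range 17.5 to 30), and 3 of 2467 windows held none. The number in a window rose with its number of other merged regions (r = 0.727 over windows). The most were 52 on chromosome 20 from 43000001 to 44000000, of 403 merged regions, and 51 each in 2 windows of chromosome 1, from 28000001 to 29000000 and from 268000001 to 269000000. As a share, the highest values were 18.3% (26 of 142 regions) on chromosome 1 from 133000001 to 134000000 and on chromosome 2 from 114000001 to 115000000. Next came 16.9% (37 of 219) on chromosome 22 from 19000001 to 20000000. These 3 windows had few regions of all 16 fetuses, at 6.34%, 4.23% and 4.57%.

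In most variable regions the numbers of hay and corn fetuses with a peak differed by at most 2. More corn than hay fetuses had a peak in 26836 variable regions (45.6%; 32.6% of all 512238 tested regions, which are those with a peak in at least 2 fetuses), and more hay than corn fetuses in 24761 (42%; 28.9% of all tested). Numbers were equal in 7292, which needs 8 fetuses with a peak. For these counts the shares of all tested regions are not a like comparison. All tested regions include those with a peak in every fetus, where the numbers must be equal. The diets differed by at most 2 fetuses in 44128 variable regions (74.9%). Whether that share differs from the share under random assignment of diet was not tested, so it is given as a description.

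By Fisher's exact test on presence and by limma on the peak score with a trend, 0 variable regions differed between the diets after adjustment for the number of regions tested. Fisher's exact test on presence gave an unadjusted p under 0.05 in 1566 variable regions (2.66%, against 0.59% of all tested regions) and a Benjamini-Hochberg adjusted p under 0.1 in 0. The share in all tested regions is not a like comparison, since with fewer than 5 or more than 11 fetuses no split of a region reaches an unadjusted p under 0.05. Among classes that can, 2.07% of regions with 5 fetuses did, 0.528% with 6, 3.55% with 7, 0.726% with 8, 3.66% with 9, 0.841% with 10 and 2.7% with 11.

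With limma on the log2 peak score, 0 variable regions had an adjusted p under 0.1 (0.000586% of all tested regions, 3 in number, did), and the smallest adjusted p was 0.919. Other forms of the fit called 3 variable regions (presence in place of the score), 4 (eBayes without trend) and 1 (peaks over 50% of a region). Over all tested regions these fits called 3, 4 and 8. A complete split between the diets needs 8 fetuses with a peak, so autosomal regions split in this way are variable by the rule. These counts therefore do not show that differences between diets gather in variable regions. The 50% rule chose its variable regions anew, and 6.93% of those overlapped a variable region as first formed. An unadjusted limma p under 0.05 was found in 1671 variable regions (2.84%, against 3.16% of all tested). Of these, 780 scored higher in hay (1.32%; 1.43% of all tested) and 891 in corn (1.51%; 1.73% of all tested). These shares lay close to those of all tested regions and are not read as a result about variable regions. The number in variable regions also changed with the form of the fit.

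Among the 1566 variable regions with an unadjusted Fisher p under 0.05, 1188 had more corn fetuses (2.02%; 0.441% of all tested) and 378 had more hay fetuses (0.642%; 0.149% of all tested), so 75.9% leaned to corn. All tested regions, which include these, leaned the same way. Of the 3022 with an unadjusted Fisher p under 0.05, 2257 had more corn and 765 more hay fetuses. The lean in variable regions rested in part on a few fetuses. Without Hay 11, the fetus with the fewest peaks, 1357 of 2408 (56.4%) leaned to corn, without Corn 7 1413 of 2326 (60.8%) and without Hay 10 1430 of 2348 (60.9%).

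A complete split was found in 3 variable regions, each with a peak in all 8 corn fetuses and in 0 hay fetuses (0.000586% of all tested regions, the same 3). They were 850 bp on chromosome 1 from 82128793 to 82129642, 655 bp on chromosome 2 from 4996132 to 4996786 and 784 bp on chromosome 10 from 63230139 to 63230922. The corn peaks were weak. On chromosome 1 they scored 1.01 to 2.07 with a median of 1.16, on chromosome 2 they scored 0.988 to 1.47 with a median of 1.13, and on chromosome 10 they scored 1.03 to 1.95 with a median of 1.46. Fisher's exact test gave p = 0.0001554 for each, its smallest value for these samples, and an adjusted p of 1. By limma, the adjusted p of each was 0.919. The 8 corn fetuses shared a single base on chromosome 10, while at most 7 did on chromosome 1 and at most 6 on chromosome 2. No variable region had a peak in all hay and no corn fetuses.

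The other variable regions with the smallest limma p also had low scores. Higher in corn were chromosome 8 from 20610989 to 20611930 and chromosome 2 from 102351302 to 102352132, each with a peak in 8 corn fetuses and in Hay 5. On the log2(scaled score + 1) scale, the region on chromosome 8 stood at 1.34 ± 0.144 in corn and 0.128 ± 0.362 in hay (SD, n = 8 each), a difference of −1.21 ± 0.331 (SE; limma, adjusted p = 0.919). The region on chromosome 2 stood at 1.36 ± 0.263 in corn and 0.162 ± 0.459 in hay, with the same adjusted p. Every corn fetus scored above every hay fetus on chromosome 8, where Hay 5 reached 1.025 and the lowest corn fetus 1.16, but not on chromosome 2, where Hay 5 reached 1.297.

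Higher in hay were chromosome 15 from 29616753 to 29617508, chromosome 5 from 18690497 to 18691312 and chromosome 6 from 36609812 to 36610653. In all of them 7 hay fetuses and a single corn fetus had a peak, and the hay fetus without one was Hay 11. The corn fetus was Corn 7 on chromosomes 15 and 5 and Corn 14 on chromosome 6. The log2 score on chromosome 15 was 1.36 ± 0.578 in hay and 0.17 ± 0.482 in corn (SD, n = 8 each), a difference of 1.19 ± 0.336 (SE; limma, adjusted p = 0.919). On chromosomes 5 and 6 the differences were 1.15 ± 0.344 and 1.15 ± 0.345 (SE), with the same adjusted p. Hay 11 was the fetus with the fewest peaks, and the part of its low number in these differences was not tested.

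The strength and size of the peaks in variable regions did not differ detectably between the diets either. The median score per fetus was 1.26 ± 0.0598 in hay and 1.27 ± 0.0577 in corn (SD, n = 8 each; exact permutation test, p = 0.626), and the median width was 227.1 ± 15.4 bp and 226.9 ± 12 bp (exact permutation test, p = 0.985). By chromosome, the share of variable regions with a peak, relative to the fetus's own genome-wide share, was compared in 26 tests that were chosen after other values had been seen. It differed at an unadjusted p under 0.05 on chromosome 19 alone, where hay fetuses stood at −2.75 ± 2.92 and corn fetuses at 2.86 ± 4.04 percentage points (SD, n = 8 each; exact permutation test, p = 0.00513). The adjusted p was 0.133, and the ranges of −8.58 to 0.214 in hay and −3.7 to 9.03 in corn overlapped.

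A small number of variable regions held strong peaks. The median score over the fetuses with a peak was 1.32 in the typical variable region and exceeded 1.966, the median of peaks in regions of all 16 fetuses, in 349 (0.593%). It exceeded 5 in 6 variable regions. Of regions with 7 fetuses, the highest median score was 12.1, on chromosome 1 from 110951109 to 110952510. There Hay 10 scored 39.7, Hay 15 23.7, Hay 8 14.3, Corn 4 12.1, Hay 3 7.02, Corn 7 3.88 and Corn 2 3.09, and the 9 other fetuses had no peak. Of regions with 8 fetuses, the highest median score was 5.38, on chromosome 3 from 62164696 to 62166135, where Corn 6 scored 11.2 and Corn 4 1.06. The diets were not separated in either (exact permutation test, p = 0.295 and p = 0.889).

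Of regions with 9 fetuses, the highest median score belonged to the widest strong region, 15141 bp on chromosome 17 from 70274741 to 70289881. The scores were 32.5 in Corn 1, 34 in Hay 5, 35.9 in Hay 12, 39 in Hay 10, 41.1 in Corn 2, 43.4 in Corn 14, 43.7 in Corn 9, 46.4 in Corn 6 and 100 in Hay 15, whose deposited P-value was 0. The other 7 fetuses had no peak in it. Peaks were thus either absent or very strong, with no fetus between, in 4 hay and 5 corn fetuses (exact permutation test on the log2 score, p = 0.891). A region of 1377 bp just before it, from 70271671 to 70273047, had a peak in the same 9 fetuses, at scores of 4.73 to 13.9.

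Because this region differed so much from the typical one, variable regions in which every peak scored over 1.966 were listed after these values were seen, so no test was made. There were 14, and 8 of them had a peak in exactly the 9 fetuses named above. Those 8 lay on chromosomes 1, 2, 11 and 17 and, apart from the 2 just described, were 278 to 447 bp wide with median scores of 3.62 to 5.59. All 9 fetuses shared a base in each. Over all scores, 15 autosomal regions on 10 chromosomes had this set of 9 fetuses, and 5 regions of chromosome X did. The opposite set, the other 7 fetuses, was found in 2 autosomal regions and in 166 regions of chromosome X.

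The same 9 fetuses also had the lower share of their peaks on chromosome X, 2.56% to 3.25% compared with 3.42% to 3.99% in the other 7, with no overlap between the sets. Sex was not given for the numbered fetuses. The set of 9 held 4 hay and 5 corn fetuses, the same numbers as the paper's male DNA pools. The part of sex in this pattern was not tested. The other 6 strong regions each had a different set of fetuses, of 3 to 5 hay and 2 to 5 corn. On chromosome 1 from 75844638 to 75845390 it was the set most common among variable regions.

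**Figure D5:**
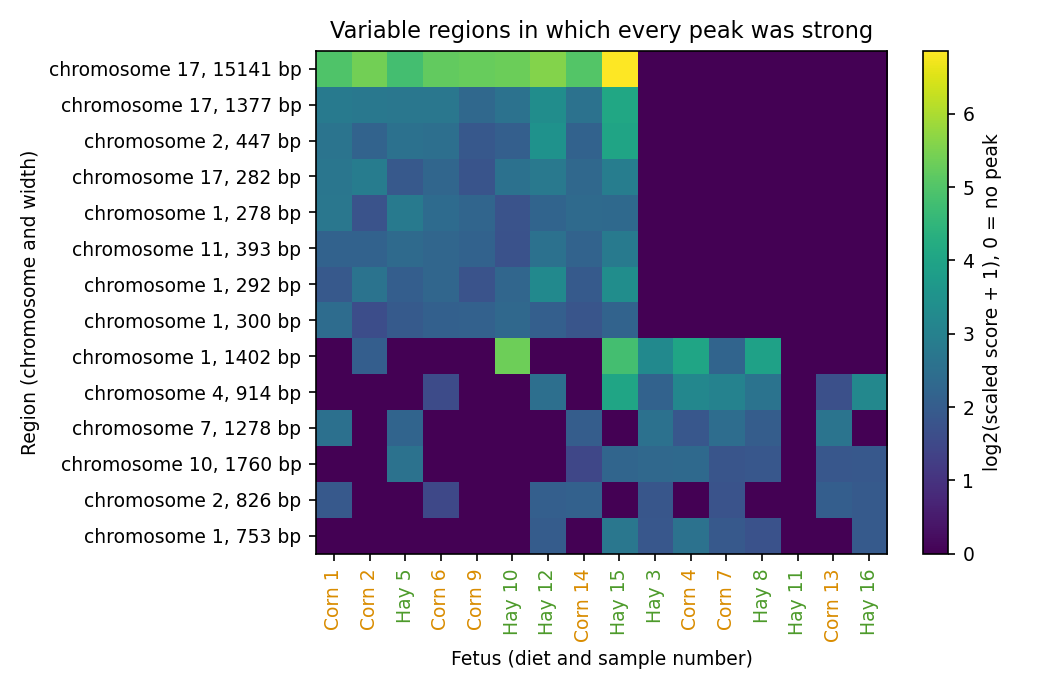
Rows are the 14 variable regions in which every peak scored over 1.966, by chromosome and width, and columns are the 16 fetuses, coloured by diet. Colour gives log2(scaled score + 1), with 0 for no peak. The upper 8 rows have peaks in the same 9 fetuses, and the widest region, 15141 bp, is the brightest row, with Hay 15 highest at 6.86.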

How the data were processed

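Genomic DNA of fetal LD muscle was enriched with an MBD kit and sequenced. According to the submitters' processing notes and the methods, Trimmomatic 0.33 was used by the authors for trimming, BWA-mem 0.7.15 for alignment to Oar_v3.1, Picard 1.107 for removal of duplicates and ChIPseeqer for calling peaks, one fetus at a time. Each deposited list gives the chromosome, start and end of a peak and an unnamed value from 0 to 0.1352, taken as its p-value. A threshold or input control is not given in the sources used here. Read counts were not used here, so depth is unknown and no counting interval was computed. Lists held 261331 to 519923 peaks.

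Peaks sharing at least 1 bp were merged with Python 3.11.15, numpy 2.4.6, pandas 2.3.3 and scipy 1.17.1. The score was −log10 of the p-value, with 0 set to 1e-100. For limma 3.58.1 in R 4.3.3 (lmFit, eBayes with trend), the highest score per fetus and region was divided by its median ratio over regions found in every fetus and taken as log2(score + 1), with 0 for no peak. Regions found in 2 or more fetuses, chromosome X included, were tested with Benjamini-Hochberg adjustment over all of them and a threshold of 0.1, the FDR limit of the study. Single values per fetus were compared by exact permutation over 12870 assignments (smallest p 0.0001554), agreement by all sign changes over 16 fetuses (smallest p 3.052e-05), correlations by 100000 resamples, or exactly within a diet, and presence by Fisher's exact test. The limma and permutation steps were tested on simulated data.

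Members and rules were chosen with earlier results of these data known. Regions named are those split 8 and 0 between diets, the 3 with the smallest limma p in each direction, the 3 longest runs, the 3 windows with the most members and the 3 with the highest share (at least 50 regions), the region with the highest median score for 7, 8 and 9 fetuses, and the 2 chromosomes with the highest and the 2 with the lowest share. Others are said to have been chosen after their values were seen. Alternatives covered the merging distance, peak filters, limits of the rule, scaling, pseudocount, covariates and leaving out each fetus. Without a genome of the same build, sequences, CpG content and genes were not analysed here.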

Additional observations from a re-analysis of the deposited data

Results flagged for a closer look

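In 34 groups of 8 fetuses, the log2 score of the named regions or a value per fetus was examined for a fetus far from the others of its diet by Dixon's criterion, which picks out about 1 group in 20 by chance, and 8 groups had such a fetus. All 8 were in regions named for their difference between diets, where most fetuses of a diet have no peak or all have one, so a single exception stands out. At the region on chromosome 1 from 82128793, Corn 7 had a log2 score of 1.551 against a corn median of 1.114. Against a hay median of 0, Hay 5 had 1.297 at the region on chromosome 2 from 102351302 and 1.025 at the region on chromosome 8 from 20610989. Against a corn median of 0, Corn 7 had 1.063 on chromosome 5 from 18690497 and 1.363 on chromosome 15 from 29616753, and Corn 14 had 1.033 on chromosome 6 from 36609812. Hay 11 was at 0 on chromosome 5 from 18690497 and on chromosome 15 from 29616753, where the hay medians were 1.474 and 1.572.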

How the results depend on the processing

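No paired analysis was possible because no replicate number was shared between the diets. The number of variable regions was 19274 with exactly 8 fetuses and 100526 with 6 to 10. The relation of the share of variable regions to the number of peaks elsewhere (r = 0.894) was 0.306 when peaks had to cover 50% of a region (permutation test, p = 0.246, cause not tested). It was −0.926 with equal lists, where the peaks outside are the fixed total less those inside. Against the deposited peaks outside the variable regions as first formed, it was −0.137 (added after seeing the data). Agreement of neighbours (1.98 points) kept its direction and its side of the threshold in every alternative, but was 1.19 points with peaks up to 100 bp apart merged, 0.923 without the weakest 25% of peaks, 0.611 to 0.649 without the closest pairs and 9.11 to 20.1 in these alone. The 1566 regions with an unadjusted Fisher p under 0.05 became 140 with exactly 8 fetuses and 2551 with 50% coverage, and numbered 1925 to 2496 when a fetus was left out (2496 without Corn 4, 2408 without Hay 11). With a limma adjusted p under 0.1, 3 of 3 called regions were variable with presence in place of the score and 4 of 4 without the trend. An autosomal region completely split between the diets has 8 fetuses with a peak and is variable by the rule, so these shares are not a result about variable regions. With 50% coverage 1 of 8 was among the variable regions chosen anew. In all other fits the number was 0, and 0 to 53 of all regions passed (53 without Hay 11). Leaving out a fetus moved the difference between diets in the share from −4.88 to 2.77 points, in the median score from −0.0254 to 0.00124 and in the median width from −3.02 to 3.55 bp, and no p was under 0.05. The share difference (−1.98 points) was −6.12 without the weakest 25% of peaks, −6.41 with equal lists and −11.5 with 50% coverage, and the score difference (−0.0147) was −0.0287, −0.0731 and −0.0919, with exact permutation p-values of 0.0695 to 0.46. The width difference (0.25 bp) was −0.375 bp with 6 to 10 fetuses, −1.5 bp without the weakest 25% of peaks, −30 bp with equal lists and −52.75 bp with 50% coverage (exact permutation test, p = 0.141 for the last). Unknown depth limits all statements on absence. Redefining presence by 50% coverage kept 6.98% of the variable regions, leaving out the weakest 25% of peaks 26.6%, and merging peaks up to 100 bp apart 95.1%.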
